A study of Mus musculus with 2 samples.

Results

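Of the 18685 genes measured, 9 are described here: the matrix metalloproteinases Mmp2, Mmp8, Mmp9, Mmp12, Mmp13 and Mmp14 and the tissue inhibitors Timp1, Timp2 and Timp3. They were taken by name, with no threshold on a measured value. Matrix metalloproteinases are zinc-dependent enzymes that cut collagens, elastin and other proteins outside the cell, and most are secreted as inactive precursors that another protease must open. Tissue inhibitors of metalloproteinases (TIMPs) are small secreted proteins that block the active site, and TIMP-2 also helps the membrane-bound MMP-14 to activate MMP-2. In tumours these enzymes are known from fibroblasts, macrophages and neutrophils, where they remodel matrix and release growth factors bound to it.

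Tumours of Hep1-6, a mouse hepatoma cell line, were grown as grafts in wild-type male C57BL/6 mice aged 6 to 8 weeks, kept on a normal diet under specific pathogen free conditions. One group received IgG and the other an antibody against SIGLEC15, both by intraperitoneal injection, with 3 mice and 1 library per group. Digested tumour cells and cells enriched with CD45 beads were loaded in equal parts, so the shares of cell types are not those of the tumour. The IgG matrix, as given for this work, has complete rows for few genes, and 0 of the 9 are among them, so the levels below come from the antibody library alone and no effect of the antibody on these genes can be given.

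The antibody library held 5482 cells and 74168827 unique molecular identifiers (UMIs, counts of captured transcripts), with 553 to 46558 UMIs per cell and a median of 13714.5. The cells carried the authors' 30 cluster names. Tumor clusters held 84.3% of all UMIs, and 11 cell barcodes were shared with the IgG library. A level is given as CPM: the UMIs of a gene summed over the cells of a cluster or class, scaled so that all genes there sum to 1e+06. Cells of 1 library are not replicates, so no p-value is given, and each interval is a 95% interval that covers counting error only. A level falls both with fewer expressing cells and with a smaller share of the gene among the UMIs of each cell. Transcripts were tagged at their 3′ ends, so levels are compared across cells for 1 gene and not between genes. The exceptions are list genes put in order and marker sums set side by side, where the order is only of UMIs counted. Classes of at least 30 cells were ranked.

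The authors' names were checked against marker genes. Fibroblast&Endothelial_1 (96 cells) had all 7 fibroblast markers at a summed 34957 CPM, with 4 of 6 endothelial markers at 0. Fibroblast&Endothelial_2 (54 cells) mixed fibroblast markers at 8465 CPM, pericyte markers at 2149 CPM, endothelial markers at 961 CPM and hepatoma markers at 5529 CPM. The clusters MDSC_1 to MDSC_4 (707 cells), named for myeloid-derived suppressor cells, had all 7 neutrophil markers at 61844 CPM, and are treated as 1 class. MDSC_5 (37 cells) had hepatoma markers at 8261 CPM and macrophage markers at 7257 CPM, against neutrophil markers at 1072 CPM, and it is kept apart. Unknown (95 cells) had hepatoma markers at 11540 CPM, against 13106.5 CPM in Tumor cells, at a median depth of 20025 UMIs. Summed macrophage markers do not separate macrophages from hepatoma cells, since Tumor cells had 7049 CPM of the same list. C1qa, a macrophage gene, was at 3117 CPM in macrophages, 2170 CPM in Macrophage_2, 701 CPM in DC, 635 CPM in MDSC_5 and 3.90 CPM in Tumor cells. The DC cluster (208 cells) had neutrophil markers at 4047 CPM, macrophage markers at 3478 CPM, monocyte markers at 3007 CPM and dendritic cell markers at 337.5 CPM. The monocyte sum does not separate monocytes from fibroblasts. It was 5163 CPM in Fibroblast&Endothelial_1, where the monocyte genes Ly6c2, Ccr2 and Chil3 were at 0. CD3_T (138 cells) had natural killer cell markers at 4489 CPM and T cell markers at 2310 CPM. Macrophage_2 had T cell markers at 956 CPM beside macrophage markers at 9071 CPM.

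The metalloproteinase genes Mmp13, Mmp12 and Mmp8 lie in 1 cluster on mouse chromosome 9. Mmp13 and Mmp12 were both highest in macrophages, and Mmp8 in MDSC_1 to MDSC_4. The bases before their RefSeq start sites (build GRCm38.p6, plus strand) are shown to set the 2 macrophage genes beside their neighbour Mmp8. Mmp13 lies at chr9:7272514-7283331 and Mmp12 at chr9:7344381-7369499, and Mmp8 follows at chr9:7558456-7568485 (GENCODE M21, GRCm38). The windows are chr9:7272264-7272513 for Mmp13, chr9:7344147-7344380 for the first Mmp12 start, where the 16 bases next to the RefSeq start are not printed, and chr9:7558179-7558428 for Mmp8. Capitals mark letters that match the AP-1 motif TGANTCA or the PEA3/ETS motif AGGAAG on either strand.
Mmp13: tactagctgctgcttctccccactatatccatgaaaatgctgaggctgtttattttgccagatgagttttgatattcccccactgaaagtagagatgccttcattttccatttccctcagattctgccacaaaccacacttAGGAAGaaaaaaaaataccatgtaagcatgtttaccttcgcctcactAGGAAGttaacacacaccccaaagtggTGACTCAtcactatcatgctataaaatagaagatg
Mmp12: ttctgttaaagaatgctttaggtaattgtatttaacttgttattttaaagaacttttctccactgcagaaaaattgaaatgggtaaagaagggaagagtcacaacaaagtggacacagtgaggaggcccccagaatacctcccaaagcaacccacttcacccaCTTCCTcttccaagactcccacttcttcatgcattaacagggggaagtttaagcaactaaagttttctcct
Mmp8: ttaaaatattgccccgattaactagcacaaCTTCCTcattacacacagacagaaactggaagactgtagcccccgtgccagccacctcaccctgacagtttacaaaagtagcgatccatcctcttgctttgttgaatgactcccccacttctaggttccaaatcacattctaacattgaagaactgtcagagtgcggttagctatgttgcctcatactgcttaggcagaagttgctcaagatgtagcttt
The Mmp13 window holds an AP-1 match 35 to 29 bases before the start and 2 PEA3/ETS matches, and the windows of Mmp12 and Mmp8 hold 1 PEA3/ETS match each. The second RefSeq start of Mmp12 holds an AP-1 match 44 to 38 bases before it. Over all 32851 windows of 250 bases, 6.75% hold the AP-1 motif and 29.5% the PEA3/ETS motif. Of the 7 members with a window, 2 held AP-1 and 6 held PEA3/ETS. The motifs NF-kB, in 45.8% of all windows, and C/EBP (TTGCNNAA), in 9.56%, were found in 3 and 2 members. These matches are letters in a window, and binding was not measured. The stretch of 427 kb holds 10 metalloproteinase genes and 0 other protein-coding genes between them, and 6 of the 10 were in the matrix. Mmp3, the gene of stromelysin-1, was highest in Fibroblast&Endothelial_1, which held 95.2% of its 314 UMIs.

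**Figure D1:**
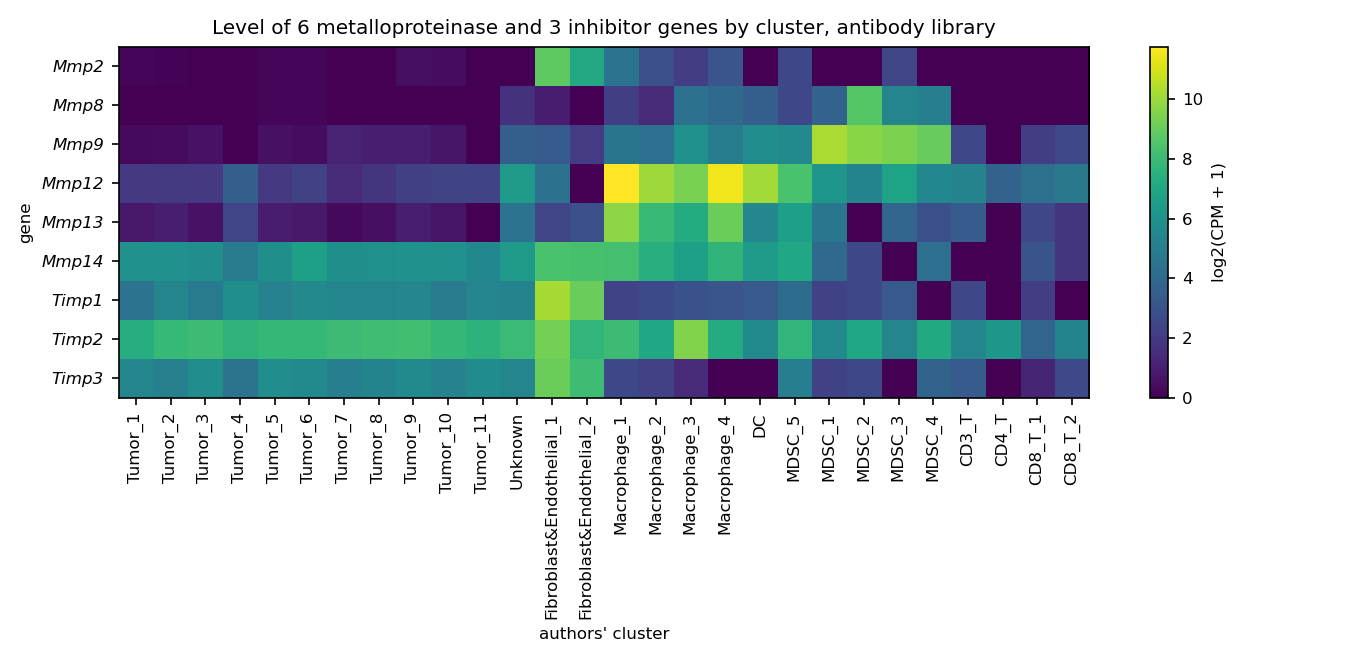
Level of each of the 9 genes (rows) in each of the authors' clusters with at least 30 cells (columns), as log2 of CPM plus 1 in the antibody library. Mmp9 is bright in MDSC_1 to MDSC_4 and Mmp8 in MDSC_2 (401 CPM), Mmp12 and Mmp13 in the Macrophage clusters, and Mmp2 and the 3 inhibitors in Fibroblast&Endothelial_1.

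Mmp2 encodes gelatinase A, which cuts denatured collagen and basement membrane, and lies at chr8:92827291-92853420. Its level was 463 CPM in Fibroblast&Endothelial_1 (interval 424 to 504; 520 UMIs) and 136 CPM in Fibroblast&Endothelial_2 (99.1 to 183; 44 UMIs), a ratio of 3.39 (2.49 to 4.73). In the second cluster 1 cell held 36.4% of the UMIs, and without the top cell of each cluster the ratio was 4.73. Fibroblast&Endothelial_1 alone held 84.1% of all 618 Mmp2 UMIs. A UMI was found in 91.7% of its cells (median depth 10856 UMIs), and in 35.9% (25.9 to 45.8) once each cell was thinned to 1000 UMIs. In Tumor cells, at a median depth of 20428 UMIs, 0.218% of cells had a UMI, or 0.0113% after thinning. Mmp2 was thus counted almost wholly in the fibroblast-marked cells, and no UMI was seen in T cells, CD3_T, DC or Unknown.

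Macrophages gave a low Mmp2 level of 11.3 CPM (8.20 to 15.1; 44 UMIs). Macrophages without a UMI of collagen genes had 13.1 CPM (9.43 to 17.7; 455 cells), and those with one had 2.90 CPM (0.351 to 10.5; 77 cells). Mmp2 UMIs per Col1a2 UMI were 1.33 (0.830 to 2.16) in macrophages and 0.0376 (0.0344 to 0.0411) in Fibroblast&Endothelial_1, so the 2 classes did not hold these genes in the same ratio. Among the macrophage clusters, Macrophage_1 had 21.1 CPM and Macrophage_2 6.29 CPM, a ratio of 3.36 (1.64 to 7.42).

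Mmp9 encodes gelatinase B, which neutrophils store in granules, and lies at chr2:164940780-164955850. Its level was 846 CPM (786 to 911; 718 UMIs) in MDSC_1 to MDSC_4 and 52.8 CPM (39.1 to 69.9; 49 UMIs) in DC, a ratio of 16.0 (11.99 to 21.9). These 4 clusters, 12.9% of the cells and 1.14% of the UMIs, held 74.8% of all Mmp9 UMIs. A UMI was found in 53.9% of their cells at a median depth of 1047 UMIs. Thinning to 1000 UMIs kept the 405 of 707 cells that were deep enough, and the share was then 48.0% (43.2 to 53.1). Among T cells, with a median depth of 3856 UMIs, the shares were 1.31% and 0.231%. The UMIs were spread over many cells: the cell with the most held 8, or 1.11% of the class.

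Below MDSC_1 to MDSC_4, the DC cluster and MDSC_5 (46.2 CPM) did not differ beyond counting error, with a ratio of 1.14 (0.661 to 2.06). Macrophages followed with 26.7 CPM (21.8 to 32.3), and among them Macrophage_3 had 58.8 CPM against 22.5 CPM in Macrophage_1, a ratio of 2.61 (1.57 to 4.36). Neutrophil markers were also higher in Macrophage_3, at 4197 CPM, than over all macrophages, at 1319 CPM, and their part in the Mmp9 level was not tested. Mmp9 UMIs per S100a9 UMI, a neutrophil calgranulin gene, were 0.0238 (0.0176 to 0.0316) in DC and 0.0243 (0.0225 to 0.0261) in MDSC_1 to MDSC_4. In macrophages that ratio was 0.0379 (0.0309 to 0.0461). The value for MDSC_1 to MDSC_4 pools unlike clusters. Mmp9 and S100a9 UMIs were 309 and 3178 in MDSC_1 and 172 and 17810 in MDSC_2. They were 154 and 4435 in MDSC_3 and 83 and 4181 in MDSC_4. The source of the Mmp9 UMIs in DC was not tested.

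Within the neutrophil-marked clusters Mmp9 had the order MDSC_1 at 1217 CPM (1085 to 1360), MDSC_2 at 820 CPM (702 to 953), MDSC_3 at 682 CPM (579 to 799) and MDSC_4 at 523 CPM (416 to 648). MDSC_1 exceeded MDSC_2 by a ratio of 1.48 (1.23 to 1.80) and MDSC_4 by 2.33 (1.82 to 3.00). MDSC_2 and MDSC_3 did not differ beyond counting error (1.20, 0.962 to 1.51), nor did MDSC_3 and MDSC_4 (1.31, 0.993 to 1.73). With only cells of at least 2000 UMIs the ratio of MDSC_1 to MDSC_2 was 1.19.

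Mmp8 encodes the collagenase of neutrophils, which cuts fibrillar collagen. It was the rarest of the 9, with 142 UMIs, of which MDSC_1 to MDSC_4 held 101, at 119 CPM (97.0 to 145). The DC cluster followed with 10.8 CPM (5.17 to 19.8; 10 UMIs), a ratio of 11.04 (5.76 to 23.7), which was 31.2 with only cells of at least 2000 UMIs. Mmp8 was seen in 6.22% of the MDSC_1 to MDSC_4 cells, and in 7.45% (5.05 to 10.4) after thinning, which kept the deeper cells. Macrophages had 5.64 CPM (22 UMIs), and the ratio of DC to macrophages was 1.91 (0.808 to 4.21). Among the macrophage clusters, Macrophage_3 had 20.15 CPM (12 UMIs) and Macrophage_4 15.11 CPM (2 UMIs), both above the DC value. No UMI was seen in T cells, whose upper bound was 1.80 CPM.

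Unlike Mmp9, Mmp8 was held mostly by 1 cluster. MDSC_2 had 401 CPM (320 to 496) from 84 UMIs, against 39.9 CPM in MDSC_3, 31.5 CPM in MDSC_4 and 11.8 CPM in MDSC_1. The ratio of MDSC_2 to MDSC_3 was 10.05 (5.05 to 22.7), and it lay between 8.72 and 10.4 under the other settings tried. A UMI was found in 18.8% of MDSC_2 cells, and 1 cell held 20.2% of the UMIs there. In MDSC_2, Mmp8 was seen in 28.1% of the cells with an Mmp9 UMI (25 cells had both) and in 6.15% of those without, at median depths of 1255 and 1087 UMIs. The order of the 4 clusters thus differed between these genes: MDSC_1 led for Mmp9 and had 3 UMIs of Mmp8.

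**Figure D2:**
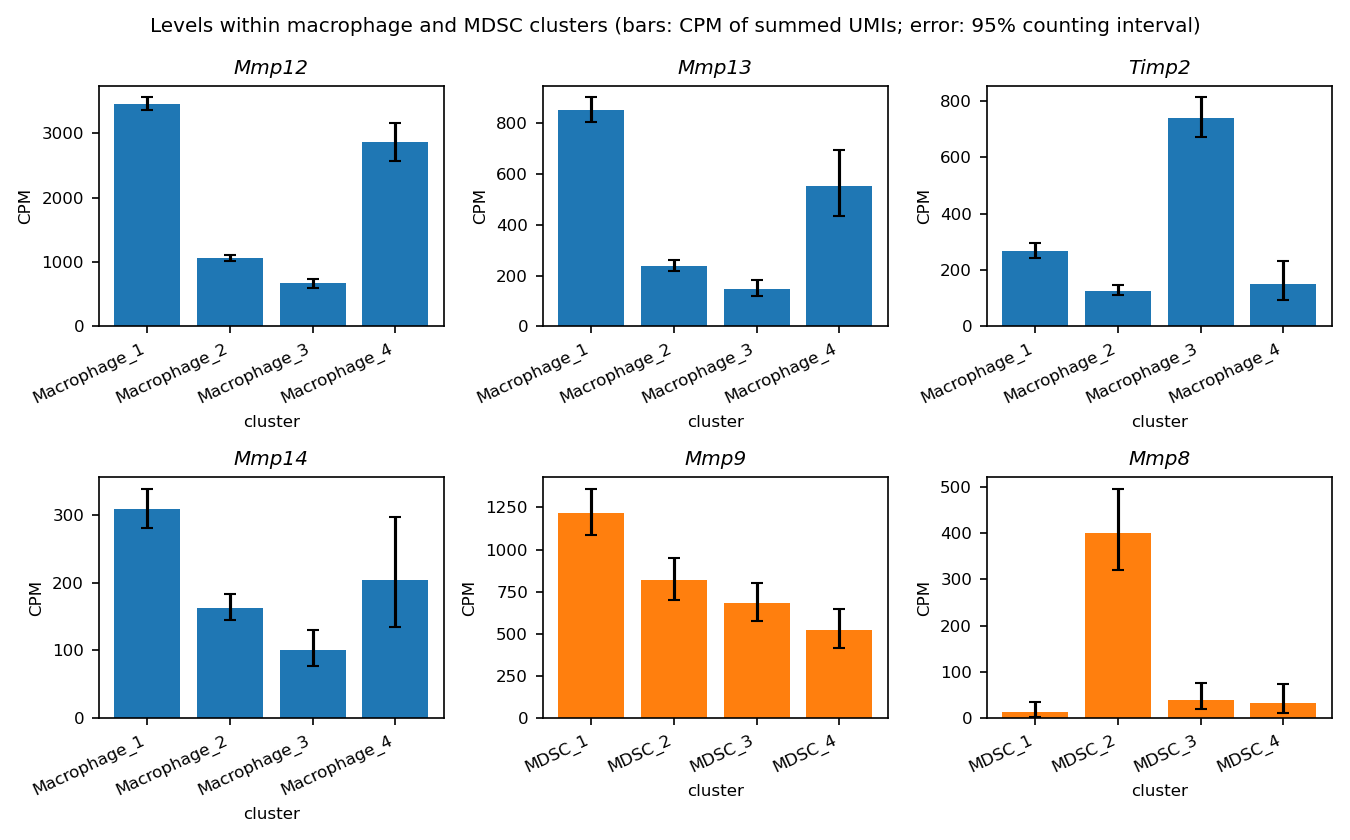
Levels in CPM (bars, from 0) with 95% counting intervals in the 4 Macrophage clusters for Mmp12, Mmp13, Timp2 and Mmp14, and in MDSC_1 to MDSC_4 for Mmp9 and Mmp8. Macrophage_1 leads for Mmp12 (3457 CPM) and Mmp13 (851 CPM), Macrophage_3 for Timp2 (741 CPM), MDSC_1 for Mmp9 (1217 CPM) and MDSC_2 for Mmp8 (401 CPM).

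Mmp12 encodes the elastase of macrophages. Its level was 1934 CPM (1890 to 1978; 7542 UMIs) in macrophages and 1126 CPM (1058 to 1196; 1044 UMIs) in DC, a ratio of 1.72 (1.61 to 1.83), which was 2.57 as a mean over cells. MDSC_5 followed with 328 CPM and Unknown with 81.7 CPM. Macrophages held 82.0% of the 9194 Mmp12 UMIs. Mmp12 was seen in 70.1% of macrophages (median depth 6946 UMIs) and, after thinning, in 50.3% (45.7 to 54.8). Among T cells the shares were 6.54% and 1.97%. The UMIs were unevenly spread over macrophages: 1 cell held 391, and the per-cell level had a median of 791 CPM and an upper quartile of 2464 CPM.

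The DC value moved with macrophage markers. DC cells with a UMI of a C1q gene, which encode a complement component made by macrophages, had 1547 CPM of Mmp12 (1445 to 1655; 101 cells, median depth 4585), and those without had 502 CPM (433 to 580; 107 cells, median depth 3214). In Unknown the same split gave 223 CPM (186 to 267) and 16.8 CPM (10.3 to 25.9). Mmp12 UMIs per C1qa UMI were 1.61 (1.46 to 1.77) in DC, 0.620 (0.603 to 0.639) in macrophages and 0.533 (0.355 to 0.788) in T cells. The part of macrophage RNA or doublets in these values was not tested further. Of the predicted doublets, 0 were in DC, against 42 of the 95 Unknown cells and 13 of the 37 MDSC_5 cells.

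Mmp13, the interstitial collagenase of mice, was counted with Mmp12. Macrophages had 459 CPM (438 to 480; 1789 UMIs), or 90.35% of its 1980 UMIs, and MDSC_5 followed with 99.7 CPM (71.6 to 135), a ratio of 4.60 (3.38 to 6.43). DC, high in Mmp12, had 42.0 CPM (29.9 to 57.5) of Mmp13. Mmp13 was seen in 53.2% of macrophages and in 24.99% (21.1 to 29.0) after thinning, against 1.83% and 0.320% of T cells. Among 532 macrophages 259 had UMIs of both genes, 114 of Mmp12 alone, 24 of Mmp13 alone and 135 of neither. Cells with an Mmp12 UMI were also deeper, with a median of 7875 UMIs against 4651.

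The macrophage clusters differed in both genes. Mmp12 was at 3457 CPM (3361 to 3555) in Macrophage_1, 2856 CPM (2576 to 3159) in Macrophage_4, 1056 CPM (1009 to 1106) in Macrophage_2 and 667 CPM (603 to 736) in Macrophage_3. Mmp13 had the same order, at 851, 552, 239 and 148 CPM. Macrophage_4 had a median depth of 1053 UMIs, against 7870 in Macrophage_1. Its hepatoma markers were at 2509 CPM against 665 CPM, and its C1qa at 1322 CPM against 4231 CPM. The part of depth or hepatoma RNA in the levels of Macrophage_4 was not tested. Macrophage_1 exceeded Macrophage_3 by a ratio of 5.19 (4.68 to 5.76) for Mmp12 and 5.76 (4.63 to 7.23) for Mmp13, and as means over cells by 3.91 and 3.30. Macrophage_1 and Macrophage_4 differed in Mmp12 by a ratio of 1.21 (1.09 to 1.35), which was 1.00 as a mean over cells, so their order rests on how cells were weighted. In Macrophage_2, 90 of 158 cells had a CD3 UMI, and Mmp12 was at 866 CPM in them and at 1368 CPM in the others.

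Mmp14 encodes the membrane-type enzyme that cuts collagen at the cell surface and activates MMP-2, and lies at chr14:54431612-54445364. Its level was 337 CPM (304 to 373) in Fibroblast&Endothelial_1 and 319 CPM (261 to 387) in Fibroblast&Endothelial_2, which did not differ beyond counting error (ratio 1.06, 0.847 to 1.33). Without predicted doublets, 5 of the 54 cells of the second cluster and 1 of the 96 of the first, the ratio was 0.785, and as a mean over cells it was 1.35, so no order of the 2 clusters is given. Macrophages had 208 CPM (194 to 223), MDSC_5 126.5 CPM, DC 87.3 CPM, Unknown 77.7 CPM and Tumor cells 62.7 CPM (60.7 to 64.6). MDSC_1 to MDSC_4 had 9.43 CPM (4.07 to 18.6) and T cells 5.86 CPM (3.03 to 10.2). Mmp14 was seen in 94.8% of Fibroblast&Endothelial_1 cells, 51.7% of macrophages and 60.3% of Tumor cells, and after thinning in 29.1%, 17.4% and 6.02%. T cells gave 2.62% and 0.577%. Since Tumor cells held most of the library, 71.2% of the 5499 Mmp14 UMIs came from them.

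In Fibroblast&Endothelial_2, the Mmp14 level differed with the pericyte markers. For this split only part of each marker list was used: Cdh5, Kdr and Cldn5 as endothelial and Rgs5, Notch3 and Cspg4 as pericyte markers. Cells counted as without a marker may hold UMIs of Pecam1, Vwf, Egfl7 or Acta2. The 11 cells with a pericyte marker and no endothelial marker had 705 CPM (544 to 898; median depth 6751 UMIs). The 9 cells with an endothelial marker only had 163 CPM (44.5 to 418; 4 UMIs, median depth 2634). The 4 cells with both had 459 CPM (291 to 688; median depth 13053.5). The 30 cells with neither had 70.7 CPM (35.3 to 126.5; median depth 1092). The part of depth in these values was not tested. In macrophages Mmp14 had the order of Mmp12 and Mmp13, with 309 CPM in Macrophage_1, 204 CPM in Macrophage_4, 163 CPM in Macrophage_2 and 101 CPM in Macrophage_3. Macrophage_1 did not differ beyond counting error from Fibroblast&Endothelial_2, with a ratio of Fibroblast&Endothelial_2 to Macrophage_1 of 1.035 (0.827 to 1.285). The intervals of Macrophage_4 (134.5 to 297) and Macrophage_2 (145 to 183.5) overlap. Among Tumor clusters it ranged from 28.3 CPM in Tumor_4, whose median depth of 2483 UMIs was the lowest of the 11, to 103 CPM in Tumor_6. Tumor_6 exceeded Tumor_1 (61.6 CPM) by a ratio of 1.67 (1.49 to 1.87).

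**Figure D3:**
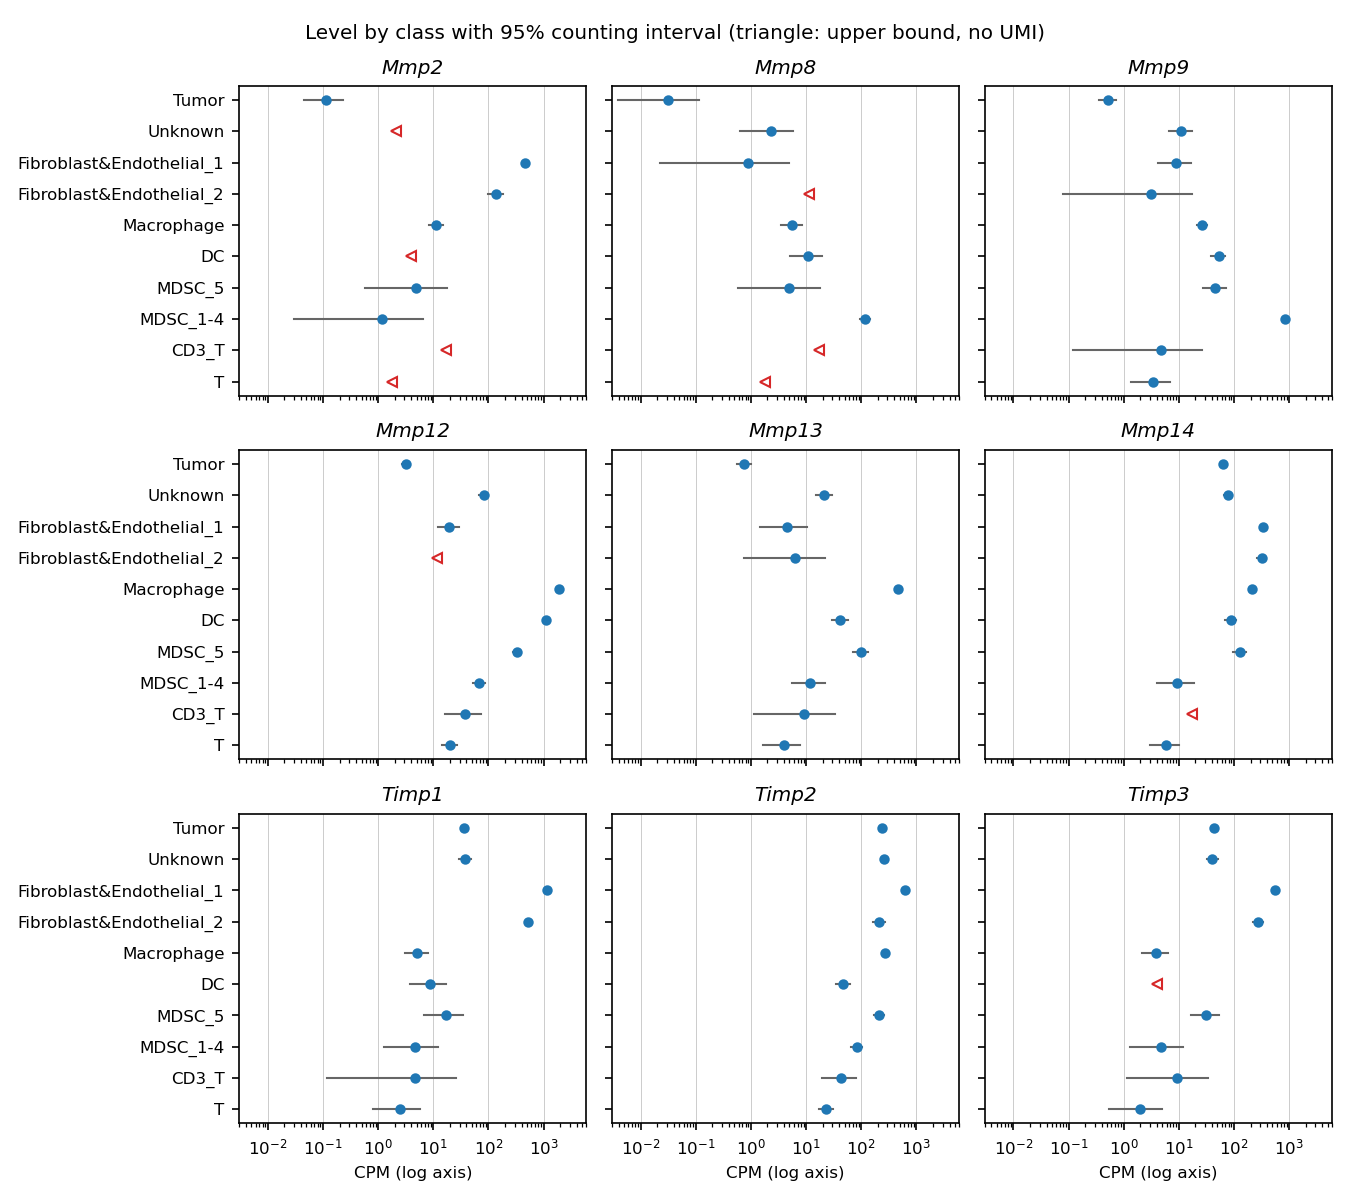
Level of each gene in CPM (log axis) in each class of at least 30 cells, with 95% counting intervals as lines and the upper bound as an open triangle where no UMI was counted. Timp1 and Timp3 drop from the 2 Fibroblast&Endothelial clusters to the immune classes, and Timp2 stays above 200 CPM in 6 of the 10 classes.

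Timp1 encodes a secreted inhibitor induced by cytokines and lies at chrX:20870166-20874735. Its level was 1163 CPM (1101 to 1228; 1307 UMIs) in Fibroblast&Endothelial_1 and 530 CPM (454 to 616; 171 UMIs) in Fibroblast&Endothelial_2. The ratio was 2.19 (1.87 to 2.59), but 1 cell held 88 of the 171 UMIs, and without the top cell of each cluster it was 4.21. Unknown (37.4 CPM) and Tumor cells (35.5 CPM, 34.1 to 37.0) did not differ beyond counting error, and MDSC_5, DC, macrophages, MDSC_1 to MDSC_4, CD3_T and T cells had 17.0 CPM or less. Timp1 was seen in 97.9% of Fibroblast&Endothelial_1 cells, or 57.9% (47.8 to 68.3) after thinning, against 3.20% and 0.654% of macrophages. Among Tumor clusters the levels ran from 21.4 CPM in Tumor_1 to 57.4 CPM in Tumor_4, and Tumor_9 exceeded Tumor_1 by a ratio of 2.00 (1.64 to 2.44).

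Timp3 encodes the inhibitor that binds to the matrix, and lies at chr10:86300372-86349506. Its level was 553 CPM (510 to 598; 621 UMIs) in Fibroblast&Endothelial_1 and 273 CPM (219 to 336; 88 UMIs) in Fibroblast&Endothelial_2, a ratio of 2.03 (1.62 to 2.56). In the first cluster 1 cell held 131 UMIs. In the second, split by the same markers as for Mmp14, cells with an endothelial marker and no pericyte marker had 1062 CPM (694 to 1556; 9 cells). Those with a pericyte marker only had 65.1 CPM (23.9 to 142; 11 cells), the opposite order to Mmp14. The 4 cells with both had 758 CPM (536 to 1040), and the 30 cells with neither had 116 CPM (68.55 to 183). Tumor cells had 42.7 CPM (41.1 to 44.4), macrophages 3.85 CPM (2.15 to 6.34), T cells 1.95 CPM, and DC no UMI in 208 cells (upper bound 3.98 CPM). Timp3 was seen in 72.9% of Fibroblast&Endothelial_1 cells (29.4% after thinning) and in 2.63% of macrophages (0.361%).

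Levels of Timp1 and Timp3 in immune cells were set beside Afp, the alpha-fetoprotein gene of the hepatoma cells. Timp3 UMIs per Afp UMI were 0.0106 (0.0102 to 0.0110) in Tumor cells, 0.0141 (0.00787 to 0.0234) in macrophages, 0.0109 (0.00296 to 0.0282) in MDSC_1 to MDSC_4 and 0.00980 (0.00266 to 0.0253) in T cells. For Timp1 the values were 0.00879 (0.00843 to 0.00917) in Tumor cells, 0.0188 (0.0115 to 0.0292) in macrophages, 0.0360 (0.0154 to 0.0723) in DC, 0.0109 (0.00296 to 0.0282) in MDSC_1 to MDSC_4 and 0.0123 (0.00396 to 0.0288) in T cells. The Timp3 intervals of these 3 immune classes hold the Tumor ratio, and so do the Timp1 intervals of MDSC_1 to MDSC_4 and T cells, while those of macrophages and DC lie above it.

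Timp2 encodes the inhibitor that also takes part in MMP-2 activation, and lies at chr11:118301069-118355740 on the minus strand. It was the most widely counted of the 9 genes, with 17302 UMIs, of which Tumor cells held 85.3%, beside 84.3% of the UMIs of all genes. Its level was 625 CPM (579 to 673) in Fibroblast&Endothelial_1 and 274 CPM (257 to 291) in macrophages, a ratio of 2.28 (2.07 to 2.51). Macrophages and Unknown (260 CPM, 237 to 285) did not differ beyond counting error, and Tumor cells followed with 236 CPM (232 to 240). MDSC_1 to MDSC_4 had 82.5 CPM (64.3 to 104), DC 47.4 CPM and T cells 22.9 CPM (16.9 to 30.5). Timp2 was seen in 90.2% of Tumor cells and 55.1% of macrophages, but after thinning the shares were 20.8% and 20.3%. T cells gave 10.99%, or 2.77% after thinning. Timp2 UMIs per Afp UMI were 1.00 (0.921 to 1.09) in macrophages and 0.0584 (0.0575 to 0.0594) in Tumor cells.

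The macrophage clusters differed in Timp2 in another order than for the enzymes. Macrophage_3, lowest in Mmp12, Mmp13 and Mmp14, had 741 CPM of Timp2 (673 to 813), against 269 CPM in Macrophage_1, 151 CPM in Macrophage_4 and 127 CPM in Macrophage_2. It exceeded Macrophage_1 by a ratio of 2.75 (2.39 to 3.16), and the ratio lay between 2.42 and 2.77 under the other settings tried. Against Fibroblast&Endothelial_1 the ratio was 1.19 (1.05 to 1.34), but 0.988 as a mean over cells, so which of the 2 clusters was higher rests on how cells were weighted. Within Macrophage_3, Timp2 was seen in 63.9% of cells with an Mmp12 UMI and in 78.2% of those without, at median depths of 5250 and 5414 UMIs. Over all macrophages the shares were 56.0% and 52.8%, at median depths of 7875 and 4651 UMIs. Among Tumor clusters Timp2 ran from 161 CPM in Tumor_1 to 292.5 CPM in Tumor_9, a ratio of 1.81 (1.69 to 1.95).

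**Figure D4:**
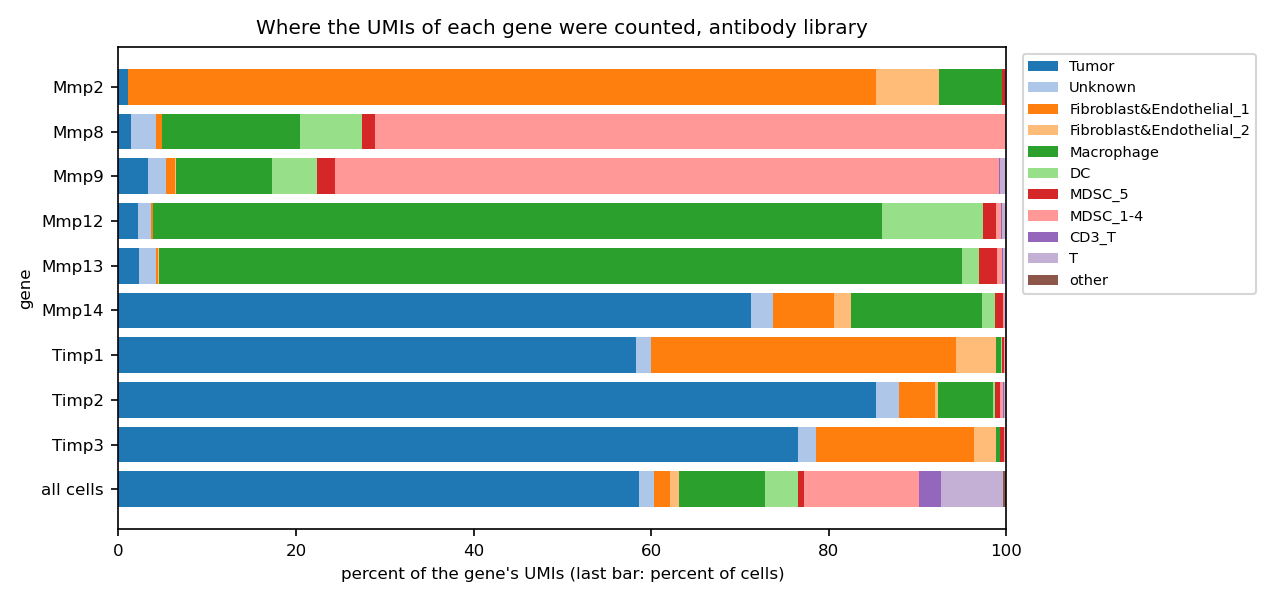
Percent of each gene's UMIs counted in each class of the antibody library, with the percent of cells per class as the last bar (other: the B and Adipocyte clusters). Tumor cells hold 85.3% of the Timp2 UMIs and 71.2% of the Mmp14 UMIs, beside 84.3% of the UMIs of all genes. Macrophages hold 90.35% of Mmp13 and 82.0% of Mmp12, beside 5.26% of the UMIs of all genes.

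Counted over all 9 genes, each class was set against the mean CPM of the other classes, and a gene was called at 2-fold. In Fibroblast&Endothelial_1, 5 members were higher (15.4% of the 12803 genes tested) and 4 lower (27.6%), and the median log2 ratio of the members was 1.76 against -0.10 over all genes. In Fibroblast&Endothelial_2, 4 were higher (13.1%) and 4 lower (25.7%), with a median of 0.08 against 0.15. Macrophages had 2 higher (8.43%) and 5 lower (20.6%), and MDSC_1 to MDSC_4 had 2 higher (11.7%) and 7 lower (52.7%). The DC cluster had 1 higher (7.77%) and 4 lower (30.3%). T cells had 0 higher (11.4%) and 9 lower (31.8%), and CD3_T likewise 0 (12.4%) and 9 (40.1%). Tumor cells had 0 higher (11.6%) and 8 lower (24.5%), with a median of -6.60 against -0.16. MDSC_5 had 0 higher (9.41%) and 5 lower (22.8%), and Unknown 0 (11%) and 7 (24.1%). Against the summed UMIs of all other cells, which are mostly Tumor, macrophages had 5 higher (22.6%) and 2 lower (22.6%), MDSC_5 4 higher (13.5%) and 1 lower (16.5%), DC 3 higher (19.4%) and Unknown 1 lower (8.94%).

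The other genes of the pathway were described from lists, of which those with at least 50 UMIs were tested. Percentages in brackets give the share of all 12803 genes with the same call. Of 7 other metalloproteinases tested, 4 were higher (15.4%) and 3 lower (27.6%) in Fibroblast&Endothelial_1, led by Mmp3 (266 CPM), Mmp23 (218 CPM) and Mmp19 (80.1 CPM). In MDSC_1 to MDSC_4, 1 was higher (11.7%) and 5 lower (52.7%), and the higher one was Mmp25 (58.9 CPM), a membrane-anchored enzyme of leukocytes. In macrophages 0 were higher (8.43%) and 5 lower (20.6%). All 5 tested genes of other inhibitors and clearance were higher in Fibroblast&Endothelial_1 (15.4%), among them Thbs2 (469 CPM) and Lrp1 (456 CPM), the endocytic receptor that takes up proteases. Of the 5, 4 were lower in macrophages (20.6%) and 4 in MDSC_1 to MDSC_4 (52.7%).

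Of 9 genes tested that activate metalloproteinases, 2 were higher (11.7%) and 5 lower (52.7%) in MDSC_1 to MDSC_4, and the share lower, 5 of 9, is near that of all genes. Plaur, the urokinase receptor gene, had 315 CPM there. In Fibroblast&Endothelial_1, 2 were higher (15.4%) and 4 lower (27.6%), and Plat, the tissue plasminogen activator gene, had 152 CPM there. Macrophages had 3 higher (8.43%) and 3 lower (20.6%), and Plau, the urokinase gene, had 26.7 CPM there. Of 8 docking partners, 4 were higher (11.7%) and 2 lower (52.7%) in MDSC_1 to MDSC_4: Cd44 (1043 CPM), a hyaluronan receptor that can hold MMP-9 at the cell surface, Lcn2 (526 CPM), whose product binds MMP-9, and Itgam (407 CPM) led the higher ones. Of 12 sheddases and relatives, 9 were higher (15.4%) and 1 lower (27.6%) in Fibroblast&Endothelial_1, led by Adamts5 (566 CPM), an aggrecan-cutting enzyme, with a list median of 1.88 on the log2 scale against -0.10 over all genes.

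Cytokine genes known to induce metalloproteinases were mostly high where Mmp9 was. Of 8 inducers, 6 were higher (11.7%) and 1 lower (52.7%) in MDSC_1 to MDSC_4, with a median log2 ratio of 4.09 against -0.67 over all genes. Il1b had 12583 CPM there, Csf1 1069 CPM, Osm 857 CPM and Tnf 381 CPM. Of the 8 inducer receptors 5 were higher (11.7%) and 2 lower (52.7%) there, led by Il1r2 (1258 CPM), the decoy receptor of interleukin-1. In Fibroblast&Endothelial_1, 3 receptors were higher (15.4%) and 4 lower (27.6%), and Il1r1, the signalling receptor, had 101 CPM there. Of 10 substrate genes 8 were higher (15.4%) and 0 lower (27.6%) in Fibroblast&Endothelial_1, led by Sparc (15423 CPM) and Col1a2 (12304 CPM). All 10 were lower in macrophages (20.6%) and in MDSC_1 to MDSC_4 (52.7%).

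Across 28 clusters of at least 20 cells, the genes most like each member were named by Pearson r of log2(CPM + 10) over 11141 genes. The clusters share 1 library and were made from these genes, so r is a description. Mmp2 was most like P3h3 (0.97), Col14a1 (0.97) and Fstl1 (0.97), Mmp9 most like G0s2 (0.99), Csf3r (0.99) and Hdc (0.98), and Mmp8 most like Tlr4 (0.92), Retnlg (0.92) and Stfa2l1 (0.92). Mmp12 was nearest to Ccl24 (0.98), Ear2 (0.97) and Cd86 (0.97), and Mmp13 to H2-M2 (0.98), Clec1b (0.96) and C1qc (0.96). Mmp14 had Itgb5 (0.93), Cpq (0.93) and Colgalt1 (0.91). Timp1 had Sparc (0.96), Bmp1 (0.96) and Fkbp9 (0.96), Timp3 had Sparc (0.95), Fermt2 (0.94) and Lamb2 (0.94), and Timp2 had lower values, with Ptov1 (0.85), Psd3 (0.85) and Glul (0.84). Among the members themselves r was 0.94 for Mmp12 with Mmp13, 0.93 for Timp1 with Timp3 and 0.82 for Mmp8 with Mmp9. It was 0.57 for Mmp2 with Mmp14, 0.69 for Mmp14 with Timp2 and 0.35 for Mmp2 with Timp2. Mmp2, Mmp14 and Timp2 encode the enzyme, activator and inhibitor that act together on the cell surface.

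Some UMIs may be shared with overlapping genes, since the strand setting of the counting is not given in the sources used here. Timp1 overlaps Syn1 (25 UMIs) and Timp3 overlaps Syn3 (82 UMIs), both on the opposite strand, and Timp2 overlaps Cep295nl (88 UMIs) on the same strand. Each of these 3 counts is small beside the UMIs of the member. Mmp12 overlaps Mmp1b on the opposite strand. Mmp1b was not among the genes of the matrix, so it has no count to set beside that of Mmp12.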

How the data were processed

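The members, gene lists and markers were chosen with earlier results of these data known. Per the submitters' processing notes, Cell Ranger 2.1.1 was the tool used on these single-cell 3′ libraries. For the genome build and the cell filters, nothing is given in the sources used here. The authors deposited cluster names (a list with 1 name per cell) and values that are the natural log of 1 plus 10000 times a gene's share of the cell's UMIs. UMIs were recovered from these values, all within 1.546e-11 of a whole number, and their sum equalled the recovered depth in 5482 of 5482 antibody cells. All deposited cells were used.

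UMIs were summed per class, with exact Poisson intervals for levels, exact conditional intervals for ratios and Clopper-Pearson intervals for shares (Python 3.11.15, numpy 2.4.6, pandas 2.3.3, scipy 1.17.1, matplotlib 3.10.9). Thinned shares are expected values at 1000 UMIs per cell. No p-value was computed. Genes with at least 50 UMIs were tested for the 2-fold call, and in medians a class without a UMI was set to the floor of 3 UMIs. Doublets were predicted with scrublet in scanpy 1.11.5 (67 cells, 1.22%) and kept. The named genes were all members, list genes among the 4 highest in a leading class, and the 3 most alike genes per member, and 1 gene that this rule names is not reported here. The splits of clusters by C1q, CD3, collagen, endothelial or pericyte UMIs and the pairs of clusters compared were chosen after seeing the data. The steps were checked on simulated data. Alternatives were other cell depths, thinning depths, fold and UMI minimums, weightings, comparators and correlations, and leaving out doublets, top cells or doubted clusters. The doubted clusters, left out for the counts of members, were MDSC_5, Unknown, Adipocyte, Tumor_4 and Macrophage_4.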

Additional observations from a re-analysis of the deposited data

How the results depend on the processing

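With 1 library per group and no p-value, every statement rests on counts within that library, and neither mice nor libraries can be compared. Of 54 alternative ratios between the leading and the next class 44 stayed within the counting interval, 10 moved outside it, and 0 turned the order of classes that differed beyond counting error. As a mean over cells the ratio was 5.91 for Mmp2 in Fibroblast&Endothelial_1 to Fibroblast&Endothelial_2, 1.35 for Mmp14 in the same clusters and 2.57 for Mmp12 in macrophages to DC. Without the top cell it was 4.73 for Mmp2, 1.84 for Mmp12 and 4.21 for Timp1. Without predicted doublets it was 0.785 for Mmp14, which crossed 1 from a reported 1.06 whose interval held 1, and 4.45 for Timp1. With at least 2000 UMIs per cell it was 31.2 for Mmp8, and with clusters weighted alike 1.94 for Timp2 in Fibroblast&Endothelial_1 to macrophages. The cause was not tested. Against the summed UMIs of all other cells, 3 members were higher in DC (19.4% of all genes), 4 higher (13.5%) and 1 lower (16.5%) in MDSC_5, 5 higher (22.6%) and 2 lower (22.6%) in macrophages, and 1 lower in Unknown (8.94%). Of 48 alternatives to ratios between clusters, added after seeing the data, 4 moved and 1 reversed: Timp2 in Macrophage_3 to Fibroblast&Endothelial_1 was 0.988 as a mean over cells. Of 108 alternative levels 19 moved outside the counting interval. Of 36 alternative shares 26 moved outside theirs, with other thinning depths and no thinning among the alternatives. Of 114 alternative counts of members 108 stayed within 1.5 times. Of 27 alternative lists of like genes 15 kept fewer than 2 of the 3 genes named. No paired analysis was possible because the result comes from no test.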
